A study of Mus musculus with 472 samples.

Results

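The genes described here encode the enzymes of glycolysis, the glucose transporters that feed it, the lactate dehydrogenases and monocarboxylate transporters that handle its end product, and the regulators at its entry and exit. There are 31 of them among 55450 gene columns, 21951 of these protein-coding. They were chosen by symbol, from what the genes are known to do, though with earlier results of these data known. Aldoa appears under 2 identifiers, so the 31 symbols cover 32 columns. The second Aldoa identifier, ENSMUSG00000114515, annotates a short adjacent locus that was positive in 1.48% of cells, and Aldoa below means ENSMUSG00000030695.

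All cells were taken from C57BL/6J mice of 7 to 9 weeks as retinal ganglion cells, which carry the output of the retina to the brain. They form 1 group, with no treatment and no genetic change named in the labels. Light responses were recorded from each cell through a patch pipette, and the cell's content was then drawn up for Smart-seq2, a full-length RNA protocol without molecular identifiers. The labels name no animals, so the cells count as 1 sample: every value below is a description of these cells, no test between cells was made, and intervals cover counting error only. Of the cells, 96.6% carried 6 or more of 12 ganglion cell markers. A cell had a median of 5184792.5 gene counts, from 58907 to 13004880. Library names carry 5 different codes, and cells that share a code are called a run: A (49.6% of cells), B (98 cells), C (62), D (59) and E (19). That these codes mark batches is an assumption. The median number of positive genes was 3024 in run D and 5253.5 to 6563 in the other runs. RNA of rods is present in many of these cells: 60.4% had 3 or more of 10 rod markers, and values of the hexokinases, Slc16a1, Slc16a3 and Pfkfb2 are given by rod marker count.

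Glycolysis splits glucose into pyruvate and yields ATP without oxygen. Pyruvate then either enters mitochondria through pyruvate dehydrogenase or is reduced to lactate by lactate dehydrogenase, and lactate leaves or enters cells through monocarboxylate transporters. Most steps are encoded by several isozyme genes with different tissue distributions. In the retina, photoreceptors are known for making much lactate even with oxygen present.

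Nearly all single-gene steps and at least 1 isozyme of each multi-gene step were present in most ganglion cells. Levels are given per 1000000 gene counts, spike-ins left out (CPM), and 10 CPM or more is called positive. By that call 20 of the 31 genes reached 50% or more of cells, against 7.76% of all gene columns and 19.3% of protein-coding ones. Of these, 14 were positive in 90% or more of cells. A further 7 were positive in 5% to 50% of cells, namely Hk2, Eno3, Slc16a1, Slc16a3, Slc16a7, Pfkfb2 and Pfkfb3. The remaining 4 were positive in under 5%: Pgam2, the muscle phosphoglycerate mutase, in 2.12%, and the testis genes Pgk2 and Ldhc and the liver and red cell pyruvate kinase Pklr in 0 cells, where 3 counts set an upper limit of 0.636%. Together the genes took a median of 2.82% of a cell's gene counts, with quartiles of 2.05% and 3.75% and a range from 0.0435% to 6.89%. The median share was highest in run A at 3.11% and lowest in run D at 2.18%, with B at 2.35%, E at 2.73% and C at 2.84%.

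**Figure D1:**
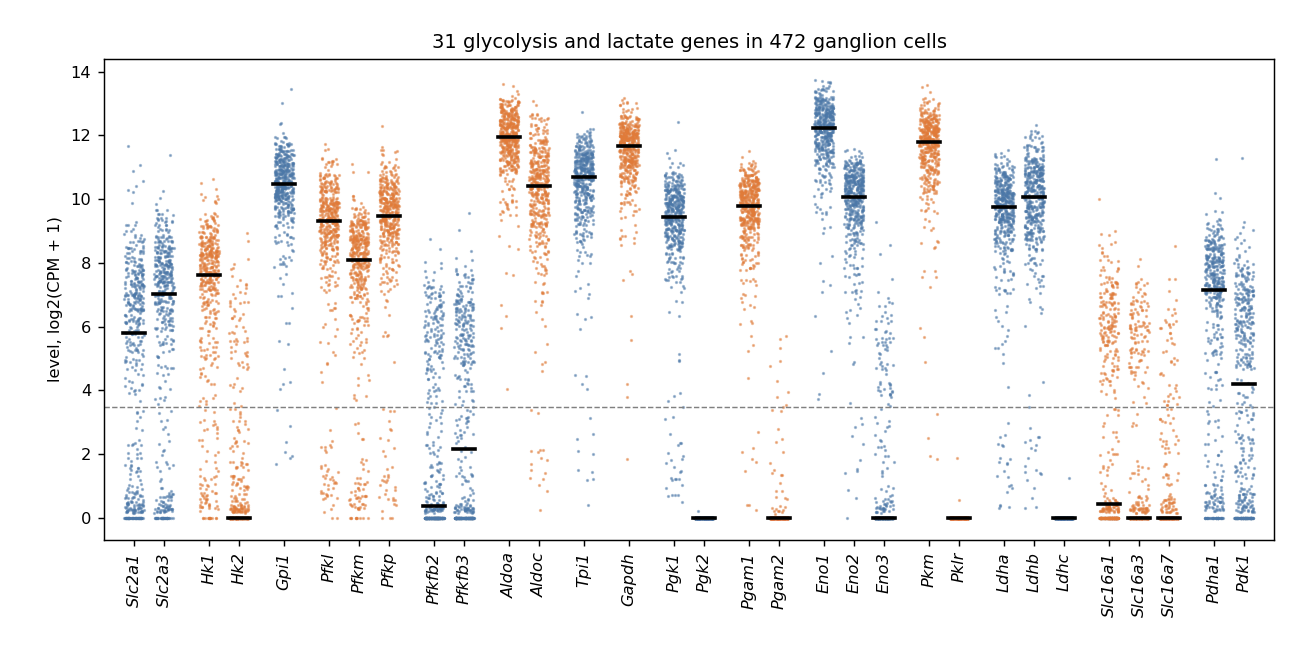
Level of each of the 31 genes, log2(CPM + 1), with 1 point for each cell; black bars are medians, the dashed line marks 10 CPM, and colours only separate neighbouring steps. Most genes from Gpi1 to Ldhb form a high band in most cells. Hk2, Pfkfb2, Pfkfb3, Pgam2, Eno3 and the Slc16a genes lie under the dashed line in most cells, and Pgk2, Pklr and Ldhc are at the floor.

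The 2 listed glucose transporters were each present in most cells and neither led the other. Slc2a1 encodes GLUT1, the transporter of blood-tissue barriers and glia, and Slc2a3 encodes GLUT3, the high-affinity transporter known from neurons. The level of Slc2a1 ranged from 0 to 3242 CPM with a median of 55.2, and 63.6% of cells were positive (95% exact Clopper-Pearson interval 59.04% to 67.9%). The level of Slc2a3 ranged from 0 to 2692 CPM with a median of 129.9, and 75.8% of cells were positive (71.7% to 79.6%). Both were positive in 52.8% of cells, Slc2a3 alone in 23.1%, Slc2a1 alone in 10.8% and neither in 13.3%. Isozymes were compared within a cell as counts per kb of gene model, taking the union of a gene's exons as its length, in cells with at least 10 summed counts of the step. On that scale Slc2a1 was ahead in 51.2% of 420 cells and Slc2a3 in 48.8%. This even split depended on the length used: with the longest protein-coding transcript as length, Slc2a1 was ahead in 39.5%. Of 8 further genes of the family, Slc2a6 was positive in 50.4% of cells, Slc2a8 in 40.7% and Slc2a13 in 37.5%, while Slc2a2, Slc2a4, Slc2a5, Slc2a10 and Slc2a12 were each positive in under 1% of cells.

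Hexokinase traps glucose in the cell, and its RNA was almost wholly that of Hk1, the form usual in neurons. Hk1 (ENSMUSG00000037012, mm10 chr10:62268855-62379908) ranged from 0 to 1593 CPM with a median of 195.2 and was positive in 83.1% of cells. Hk2 (ENSMUSG00000000628, chr6:82725025-82774454), the form known from muscle, tumours and photoreceptors, ranged from 0 to 487.0 CPM with a median of 0 and was positive in 67 cells (14.2%, 11.2% to 17.7%). Per kb, Hk1 was ahead in 96.9% of cells. Of the 13 cells with Hk2 ahead, all 13 had 3 or more rod markers.

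Hk2 followed the rod markers closely. Of its 67 positive cells, 65 had 3 or more rod markers and 2 had fewer, and 66 were also positive for Hk1. Mean Hk2 levels were 21.2 and 0.816 CPM in those 2 sets, a 25.9-fold ratio, and the mean was higher in the set with rod markers in each of the 5 runs, with only 1 cell of run E in the other set. The share of Hk2-positive cells was 1.18% of the 85 cells with 0 rod markers, 0.980% with 1 to 2, 4.72% with 3 to 5, 18.03% with 6 to 9 and 66.7% of the 57 cells with all 10. With every cell thinned to 1000000 gene counts, which left out 7 shallower cells, these shares were 1.19%, 1%, 3.81%, 20.2% and 66.7%. Hk1 moved over the same groups from 67.1% to 98.2% positive, and Slc16a1 from 27.1% to 73.7%. Cells with all 10 rod markers also had the most positive genes, a median of 6847 against 5117 with none. Markers of other cells moved along: in cells with 3 or more rod markers the summed bipolar markers had a median of 172.8 CPM against 12.3, the cone markers 14.2 against 0, the amacrine markers 561.7 against 495.3 and the Müller glia markers 1106 against 745.5. The share of cells with 3 or more of the 8 Müller glia markers was 88.4% against 65.8%, with medians of 41.96 against 0.125 CPM for Rlbp1 and of 0 for Aqp4 and Sox9. The part of rod, bipolar, cone, amacrine or Müller glia RNA in the Hk2 level was not tested. Of 9646 genes with a mean of at least 10 CPM, 2.62% were 2-fold or more higher in these cells and 1.17% lower. Hk2 reached that mean only through the cells with 3 or more rod markers, so nothing is read from its place among them. Slc16a3 had a 2.01-fold ratio with the higher mean in 3 of 5 runs, and its share of positive cells went from 16.5% with 0 rod markers to 40.4% with all 10. That of Pfkfb2 was 32.9% with 0 rod markers, 18.6% with 1 to 2 and 61.4% with all 10.

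**Figure D2:**
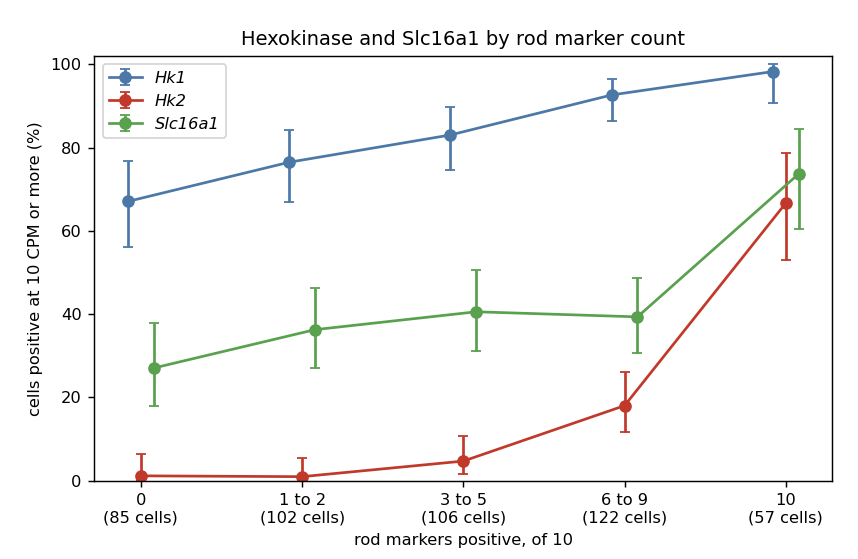
Share of cells positive at 10 CPM or more for Hk1, Hk2 and Slc16a1 (vertical axis, percent) by the number of rod markers positive out of 10 (horizontal axis); bars are 95% exact binomial intervals, which cover counting error only. Hk2 is at 1.18% with no rod markers and at 66.7% with all 10, while Hk1 is above 60% in every group.

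After Gpi1, the isomerase of the next step, which was positive in 98.5% of cells at a median of 1423 CPM, phosphofructokinase commits sugar to glycolysis. No isozyme of phosphofructokinase dominated. All 3 genes, Pfkl (liver type), Pfkm (muscle type) and Pfkp (platelet type), were positive together in 81.4% of cells, and none was in 12 cells. Median levels were 635.5 CPM for Pfkl, 269.3 for Pfkm and 710.3 for Pfkp. Per kb of exon union, Pfkl was ahead in 47.97% of cells, Pfkm in 35.2% and Pfkp in 16.8%, and their median shares of the step were 39.8%, 33.9% and 22.5%. The order rests on the length, since the Pfkp exons span 13401 bases and its longest protein-coding transcript 4145. Mean CPM per kb was 107.3 for Pfkl and 60.4 for Pfkp with the union, and 192.1 and 195.2 with the protein-coding transcript. Pfkm had 91.1 and 105.7 on the same scales.

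The bifunctional enzymes that make and remove the main activator of phosphofructokinase were each in fewer than 50% of cells. Pfkfb3, the form with the strongest kinase activity, was positive in 44.7% of cells and Pfkfb2 in 33.1%, with median levels of 3.47 and 0.284 CPM. Pfkfb3 was positive in 54.3%, 54.8% and 68.4% of cells in runs A, C and E and in 26.5% and 18.6% in B and D. Both were positive in 85 cells and neither in 190. Per kb, Pfkfb3 was ahead in 58.7% of cells with enough counts. Of the related genes listed, Tigar, a phosphatase acting against them, was positive in 37.5%, Pfkfb4 in 23.1% and Pfkfb1 in 3.81%.

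Aldolase cleaves the phosphorylated sugar into a pair of trioses. Aldoa (ENSMUSG00000030695, mm10 chr7:126795234-126800751), the muscle and general form, was positive in every cell, from 15.5 to 12591 CPM with a median of 3948. Aldoc (ENSMUSG00000017390, chr11:78322968-78327781), the brain form known from astrocytes and from stripes of Purkinje cells, was positive in 96.6% of cells, from 0.177 to 8711 CPM with a median of 1355. Per kb, Aldoa held a median of 77.7% of the step and was ahead in 95.8% of cells, and Aldoc in the other 20 cells. The middle 50% of cells covered 2702 to 5655 CPM for Aldoa and 645.1 to 2287 for Aldoc. The coefficient of variation (SD divided by mean, over cells, on CPM) was 0.504 for Aldoa and 0.849 for Aldoc.

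Of the steps after aldolase, those of Tpi1, Gapdh, Pgk1, Pgam1 and Pkm were each carried by 1 of the listed genes. Tpi1, the triose isomerase, was positive in 97.9% of cells at a median of 1653 CPM, and Gapdh, the dehydrogenase that yields NADH, in 99.8% at 3284. Pgk1, an ATP-forming kinase, was positive in 94.5% at 690.4 CPM and Pgam1 in 98.1% at 874.3. Pgk1 and Pgam1 were ahead of Pgk2 and Pgam2 in every cell compared. Pkm, pyruvate kinase, was positive in 99.2% at a median of 3531 CPM and ahead of Pklr in every cell compared. The M1 and M2 products of Pkm differ by a single exon and cannot be told apart in counts per gene.

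Enolase was led by the general isozyme, with the neuronal one behind it. Eno1, the general form, was positive in every cell at a median of 4833 CPM, and Eno2, the neuron-specific enolase used as a marker of neurons, in 97.5% at 1078. Per kb Eno1 was ahead in 97.03% of cells and held a median of 79.5% of the step, while Eno2 held 20.3%. Eno2 was ahead in 14 cells, and its share of leading cells was 13.6% in run D against 0% to 2.04% in the others. Eno3, the muscle form, was positive in 14.8% of cells and ahead in none.

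**Figure D3:**
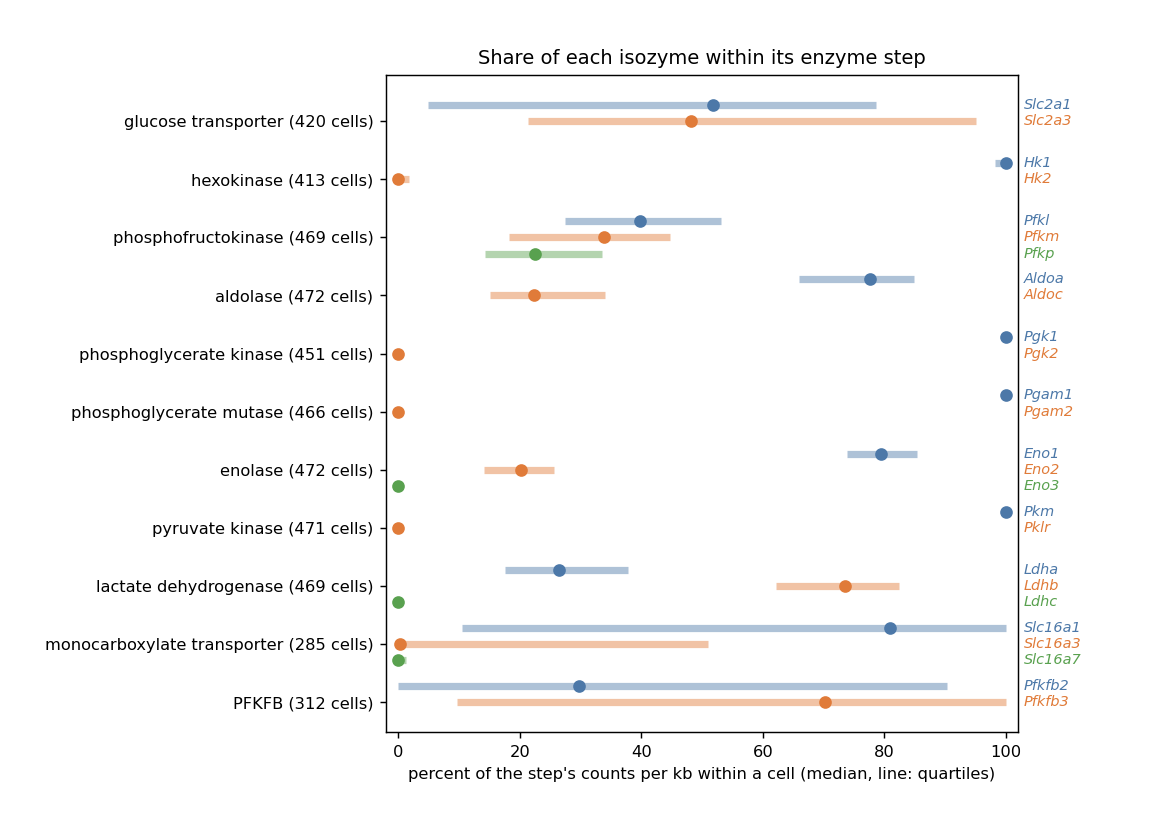
Share of each isozyme in its enzyme step within a cell, in percent of the step's counts per kb of exon union; points are medians over the cells given in brackets and thick lines span the quartiles. Aldoa, Eno1, Hk1 and Ldhb lead their steps, phosphofructokinase is shared by 3 genes, and the glucose transporters are split evenly.

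Lactate dehydrogenase was the step in which the heart form led. Ldhb (ENSMUSG00000030246, mm10 chr6:142490249-142507957) encodes the H subunit, usually tied to lactate use, and Ldha (ENSMUSG00000063229, chr7:46841475-46855627) the M subunit, usually tied to lactate production. Ldhb ranged from 0.245 to 5104 CPM with a median of 1075 and was positive in 95.97% of cells. Ldha ranged from 0.245 to 2956 CPM with a median of 854.4 and was positive in 95.3%. Both were positive in 440 cells, Ldhb alone in 13, Ldha alone in 10 and neither in 9. Per kb, Ldhb was ahead in 89.1% of cells (85.95% to 91.8%) and held a median of 73.6% of the step, with quartiles of 62.2% and 82.5%. The share of cells with Ldhb ahead ran from 75.8% in run C to 95.3% in run A, with 86.5% in B, 84.5% in D and 84.2% in E, and was 82.98% without run A. It was 78.7% with the longest protein-coding transcript as length and 62.7% with no division by length. Over all cells Ldhb thus led in most cells on each of these scales, by a margin that the length decides. The values by run above are per kb of exon union. Without division by length, medians of Ldhb and Ldha were 1419 and 905.4 CPM in run A and 615.5 and 471.1 in D. Ldha had the higher median in run B (783.8 against 749.97), C (939.5 against 734.9) and E (970.3 against 795.6). In cells with fewer than 3 rod markers the share per kb with Ldhb ahead was 88.6%. Ldhd, which acts on the other mirror form of lactate, was positive in 23.9% of cells.

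The transporters that carry lactate across the membrane were sparse. Slc16a1 encodes MCT1, Slc16a3 MCT4, the export form of glycolytic cells, and Slc16a7 MCT2, the form usually assigned to neurons. They were positive in 40.9%, 24.8% and 9.96% of cells, with medians of 0.350, 0 and 0 CPM and highest cells at 1023, 276.7 and 367.3. None of the 3 was positive in 44.7% of cells and all 3 in 13. Per kb, Slc16a1 was ahead in 63.5% of the cells with enough counts, Slc16a3 in 26.7% and Slc16a7 in 9.82%. Their chaperones were common by contrast: Bsg (basigin) was positive in 94.5% of cells, Nptn (neuroplastin) in 89.4% and Emb (embigin) in 83.7%. Slc16a1 was positive in 27.1% of cells with no rod markers (17.99% to 37.8%), and in 73.7% of cells with all 10.

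At the gate to mitochondria, Pdha1, the catalytic subunit of pyruvate dehydrogenase, was positive in 73.7% of cells at a median of 141.3 CPM. Pdk1, a kinase that switches the complex off, was positive in 52.97% at 17.5 CPM. Both were positive in 44.5% of cells, Pdha1 alone in 29.2%, Pdk1 alone in 8.47% and neither in 17.8%. Of 13 further genes of pyruvate entry, 8 were positive in 50% or more of cells. Among them the mitochondrial carrier subunits Mpc1 and Mpc2 were positive in 92.4% and 83.9%, Pdhb in 85.4%, Pdk2 in 65.7% and Pdk3 in 55.1%, while Pdk4, the kinase induced by fasting, was in 0.424%.

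The other pathways that touch glycolysis are given by how many of their genes were present in most cells. Of 11 genes of the NADH shuttles 7 were positive in 50% or more of cells, with Mdh1, the cytosolic malate dehydrogenase, in 97.03%, Got1 in 91.9% and the aspartate-glutamate carrier Slc25a12 in 83.1%. Gpd1 of the glycerol phosphate shuttle was in 2.97% and Gpd2 in 26.7%. The pentose phosphate branch had 4 of 7 genes past 50%, led by Tkt (transketolase) at 85.8% and with G6pdx, its entry enzyme, at 62.9%. Glycogen metabolism had 4 of 8, among them Pygb, the brain phosphorylase, at 55.3%. Gluconeogenesis had 0 of 6: Fbp1, Pck1 and G6pc were positive in 0 cells, and G6pc3 reached 43.6%. Of 15 genes of the hypoxia response 4 passed 50%, namely Hif1a at 91.5%, Bnip3 at 91.1%, Bnip3l at 84.1% and Vegfa at 50.8%, and Car9 was positive in 0 cells. The lists are short, so the counts are set beside the 19.3% of protein-coding genes given above. Nothing is read from differences between the lists.

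Rank correlation across cells was higher among most of the enzymes compared than with the glucose transporters Slc2a1 and Slc2a3, as a description only. Spearman's rho was taken over the 460 cells with at least 1000 positive genes, between the 20 genes positive in 50% or more of cells. The Slc16a genes were not among these. These cells share library preparation, depth and run, so rho is a description, given with its mean within runs. Over 190 pairs rho had a median of 0.321 (0.317 within runs) and ran from -0.0238 to 0.794, with 22 pairs at 0.6 or more and 27 under 0.1. No share over pairs of other genes is given, so nothing is read from these counts. The highest pairs were Aldoa with Eno1 at 0.794, Gapdh with Eno1 at 0.747, Eno1 with Pkm at 0.745, Aldoa with Pkm at 0.741 and Aldoc with Ldhb at 0.740. Slc2a1, Slc2a3 and Pfkp stood apart, with median rho to the other 19 genes of 0.103, 0.0890 and 0.107, against 0.529 for Pkm and 0.524 for Aldoa. Slc2a1 and Slc2a3 were positive in 63.6% and 75.8% of cells, and Pfkp in 92.4%. How far cells near 0 lower rho was not tested. Isozymes of 1 step were not the closest partners: rho was 0.514 for Aldoa with Aldoc, 0.478 for Eno1 with Eno2, 0.438 for Ldha with Ldhb, 0.227 for Pfkl with Pfkm and 0.103 for Slc2a1 with Slc2a3.

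**Figure D4:**
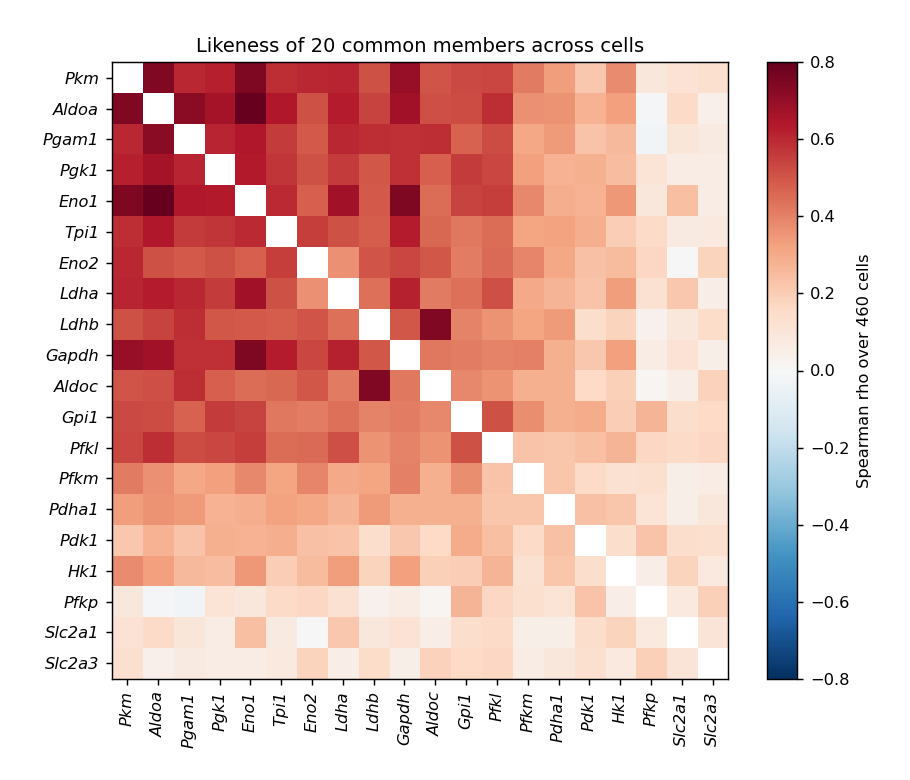
Spearman's rho of log levels between the 20 genes positive in 50% or more of cells, over 460 cells; genes are ordered by their median rho to the others and the diagonal is blank. A red block from Pkm to Pfkl fades to near 0 at Pfkp, Slc2a1 and Slc2a3, and the darkest cell outside the Aldoa, Eno1, Gapdh and Pkm group is that of Aldoc with Ldhb.

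The 10 genes outside the list that were most alike to the mean of these 20 genes, ranked among 4285 genes by rho, began with 4 near-identical copies of members: Pgam1-ps2 at 0.741, Eno1b at 0.730, Gm4735 at 0.697 and Gm7336 at 0.692. Next came Snap25, a SNARE protein of synaptic vesicle fusion, at 0.659, Bnip3, a mitophagy receptor, at 0.653, Prkar1a, a regulatory subunit of protein kinase A, at 0.651, Ndrg4 at 0.650, and Got1 and Sh3gl2 (endophilin A1) at 0.636 each. The median gene had 0.261. The same mean had a rho of 0.611 with the number of positive genes, 0.393 with gene counts and -0.445 with the spike-in share. What part of the likeness these measures carry was not tested. Near copies took few counts of their own: annotated copies, most of them of Gapdh, summed to 1.81% of the Gapdh counts, 3.53% of Pgk1, 3.57% of Pgam1 and 2.30% of Eno1. The single copy of Pfkfb2 took 4.4% of its counts. The sources used here do not say how multi-mapped reads were shared between copies and members, so the levels of these genes are uncertain.

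Aldoc and Ldhb were each other's closest gene over all cells. Among 4304 genes positive in 50% or more of cells, Ldhb was the closest gene to Aldoc and Aldoc the closest to Ldhb, at a rho of 0.740 (mean within runs 0.683, lowest run 0.381, highest 0.717). The next genes, which were chosen after their values were seen, were Cplx1 (complexin 1, which clamps vesicle fusion) at 0.629 with Aldoc and 0.735 with Ldhb, Cend1 at 0.608 with Aldoc, and Ndrg4 at 0.703 with Ldhb. Within runs the mean rho of Ldhb was 0.683 with Ndrg4 and 0.671 with Cplx1, so there Aldoc was not ahead of Ndrg4. Mdh1 had 0.594 and 0.681, and Nefl, the light neurofilament, 0.579 and 0.674. Aldoa with Ldha, the other aldolase and lactate dehydrogenase, had lower rho with both of them: Aldoc had 0.514 with Aldoa and 0.414 with Ldha, and Ldhb had 0.542 and 0.438.

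Both genes of the pair were high in cells positive for Spp1 (osteopontin) and Kcng4 (a silent potassium channel subunit), a combination known from alpha ganglion cells, the large cells with fast axons. They were 22.5% of all cells, with 82 of them from run A. Aldoc had a median of 2402 CPM in them with quartiles of 1677 and 3582, against 1123 in the other cells. Ldhb had a median of 1879 CPM with quartiles of 1254 and 2561, against 866.6. The groups overlapped: the upper quartile of the other cells was 1825 CPM for Aldoc and 1503 for Ldhb, their highest cells reached 7988 and 4535, and the lowest cells with both markers stood at 109.3 and 173.96. Aldoa and Ldha did not follow, with medians of 3830 against 4068 CPM and 891.9 against 844.4. The ratio of means was 2.04 for Aldoc, 1.93 for Ldhb, 0.940 for Aldoa and 1.05 for Ldha. Within runs the mean of Ldhb was higher in these cells in 5 of 5 runs and that of Aldoc in 4 of 5. In run A the medians were 2496 against 1411 CPM for Aldoc and 1906 against 1188 for Ldhb, and in run E, with 3 such cells, 1106 against 1109 and 1022 against 786.6.

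**Figure D5:**
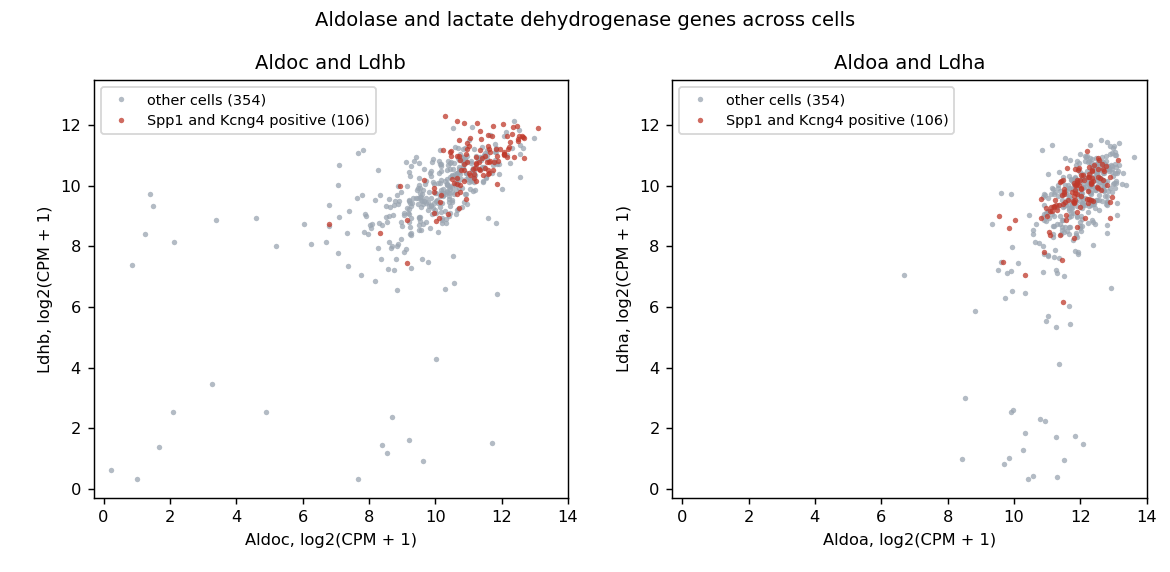
Levels of Aldoc against Ldhb (left) and of Aldoa against Ldha (right), log2(CPM + 1), with 1 point for each of 460 cells with at least 1000 positive genes; red points are the cells positive for Spp1 and Kcng4. On the left the red points crowd the upper right, and on the right they lie in the middle of the other cells.

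Of the 25 genes here with a mean of at least 10 CPM, Aldoc alone was 2-fold or more higher in the Spp1 and Kcng4 cells and none was 2-fold lower, beside 1.71% and 2.88% of 9646 genes. Nothing is read from a count of 1 in 25, and the pair is given for its values. The Aldoc ratio lay at the bound: it fell under 2 without run B (1.91), without run C (1.97), with ribosomal RNA loci left out of the totals (1.94) and in cells with at least 1000 positive genes (1.99), and was 2.24 in cells with fewer than 3 rod markers. The median ratio of the 25 genes was 1.05 and that of all 9646 genes 1.02. Ldhb was ahead of Ldha in 98.1% of these cells, with a median of 81.4% of the step. Aldoa held a median of 61.3% of its step in them, against 77.7% over all cells. Most of them were from run A, where Ldhb was ahead in 95.3% of all cells compared. In cells positive for Tbr1, a set described below that shares cells with this one, Ldhb was ahead in 94.9%. Aldoa held a median of 61.5% there. Shares within the Spp1 and Kcng4 cells were not split by run, so the part of run in them was not tested. Slc16a1 was positive in 64.2% of these cells (54.3% to 73.2%) and 34.2% of the others, with a higher mean in 5 of 5 runs, and Slc2a3 in 90.6% and 71.6%. These cells also had more positive genes, a median of 6462.5 against 5554.5 over all cells, and how far that moves the shares was not tested.

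Because Aldoc is also a gene of astrocytes and Müller glia, their markers are given beside it. The summed Müller glia markers had a median of 1106 CPM in the Spp1 and Kcng4 cells and 941.5 in the others, with ranges of 199.5 to 9018 and 3.57 to 48248. At the median, 4 of the 8 Müller glia markers were positive in each group, and 3 or more were positive in 96.2% of the Spp1 and Kcng4 cells against 74.6% of the others. Clu had a median of 509.9 CPM against 314.03, Dkk3 270.3 against 163.5, Glul 121.9 against 101.98, Apoe 53.3 against 38.7 and Rlbp1 0.699 against 0.863. Aqp4, Slc1a3 and Sox9 had a median of 0 in both groups. They were positive in 13.2%, 13.2% and 11.3% of the Spp1 and Kcng4 cells and in 12.02%, 20.8% and 13.7% of the others. The 4 astrocyte markers summed to a median of 33.1 CPM (0 to 307.6) against 0.633 (0 to 5895). Gfap, Pax2 and Aldh1l1 had a median of 0 in both groups. S100b, positive in 48.1% of the Spp1 and Kcng4 cells and 20.5% of the others, had medians of 7.81 and 0 CPM. The part of glial RNA in the Aldoc level was not tested. Over 460 cells the rho of Aldoc was 0.0356 with the Müller glia sum and 0.137 with the astrocyte sum, and that of Ldhb 0.0486 and 0.120. With Nefm, the medium neurofilament, it was 0.553 for Aldoc and 0.604 for Ldhb. Nefm itself had a median of 1843 CPM in the Spp1 and Kcng4 cells against 948.8 in the others. A single gene and a sum of markers are not like measures, so these rho are not compared.

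Cells positive for Tbr1, a T-box factor of several ganglion cell types, held another part of the high Aldoc cells and a low Slc2a1. There were 79 such cells, and 39 of them were also positive for Spp1 and Kcng4. Aldoc had a median of 3171 CPM in the 39 cells of both kinds, 2112 in the 67 with Spp1 and Kcng4 only, 1678 in the 40 with Tbr1 only and 1052 in the 69.1% of cells with neither. Ldhb followed the same order, at 1930, 1798, 1037 and 858.6 CPM, and Aldoa did not, at 3848, 3766, 3778 and 4081. For Aldoc and Ldhb the interquartile ranges of groups next to each other in this order overlapped. The groups were not split by run. Run A held 49.6% of all cells, but most of the Spp1 and Kcng4 cells and most of the Tbr1 cells. Its medians were the highest of the runs, at 1743 CPM for Aldoc and 1419 for Ldhb. Medians of the other runs lay from 946.8 to 1106 CPM for Aldoc and from 615.5 to 795.6 for Ldhb. How far run makes this order was not tested. Slc2a1 in the 79 Tbr1 cells had a median of 21.8 CPM (0 to 278.8) against 66.1 (up to 3242) in the other cells, a ratio of means of 0.442, with the lower mean in all 5 runs. In run D the medians went the other way, at 26.3 and 8.93 CPM. Slc2a1 was positive in 54.4% of Tbr1 cells and 65.4% of the others, and ahead of Slc2a3 in 28.2% of 71 Tbr1 cells (18.1% to 40.1%). The share with Slc2a1 ahead was also low in the Spp1 and Kcng4 cells compared, at 35.6% (26.4% to 45.8%), against 51.2% over all cells compared. Since 39 cells belong to both sets and Slc2a1 was not split by both, whether its low level goes with Tbr1 alone was not tested. Of the 25 genes Slc2a1 was the only one 2-fold or more lower in Tbr1 cells and none was 2-fold higher, beside 3.31% and 0.819% of 9646 genes. Nothing is read from that count.

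The remaining marker-defined cells did not depart by 2-fold for any of the 25 genes. In the 50 cells with Col25a1 and Cdh6, genes of direction-selective cells, ratios of means ran from 0.509 for Slc16a1 to 1.59 for Pfkfb3, beside 2.30% of genes 2-fold higher and 3.20% lower. In the 75 cells with Opn4 (melanopsin) or Eomes, ratios ran from 0.726 to 1.29, beside 1.49% and 1.47%. In the 52 cells with Foxp2, or with Foxp1 and Irx4, they ran from 0.631 to 1.41, beside 1.70% and 3.15%. Ldhb was ahead of Ldha in 95.9%, 90.5% and 94.2% of the cells of these sets, and in 84.4% of the compared cells that belonged to none of the sets. Aldoa led Aldoc in 100%, 93.3% and 100%, against 88.6% in Tbr1 cells.

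The promoters of the pair and of its counterparts are shown so that Aldoc and Ldhb can be set beside the other main isozymes of their steps. Each window is the 250 bases before a transcription start, from RefSeq on GRCm38.p6, read 5′ to 3′ on the gene's strand. Where RefSeq lists several starts, that nearest the 5′ end of the longest protein-coding transcript is given, 1 of 3 for Aldoa and 1 of 2 for Aldoc and Ldha. The windows of Aldoc and Aldoa are printed only up to the first base that GENCODE annotates as exon. The printed stretches are chr11:78322823-78322967 on the plus strand for Aldoc, chr6:142507958-142508207 on the minus strand for Ldhb, chr7:126799255-126799428 on the minus strand for Aldoa and chr7:46846832-46847081 on the plus strand for Ldha. Capitals mark ACGTG on either strand, the core of hypoxia-response elements, which is also held by many E-boxes.
Aldoc: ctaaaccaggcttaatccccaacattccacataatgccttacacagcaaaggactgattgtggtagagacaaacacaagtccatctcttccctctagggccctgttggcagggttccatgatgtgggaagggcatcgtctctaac
Ldhb: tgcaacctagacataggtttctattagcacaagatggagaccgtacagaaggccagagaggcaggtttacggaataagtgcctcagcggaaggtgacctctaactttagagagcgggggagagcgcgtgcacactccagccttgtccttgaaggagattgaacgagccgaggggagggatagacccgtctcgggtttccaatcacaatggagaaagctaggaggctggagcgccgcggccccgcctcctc
Aldoa: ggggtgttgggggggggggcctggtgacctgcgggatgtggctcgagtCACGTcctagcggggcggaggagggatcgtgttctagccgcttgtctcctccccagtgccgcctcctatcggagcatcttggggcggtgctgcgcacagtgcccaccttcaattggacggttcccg
Ldha: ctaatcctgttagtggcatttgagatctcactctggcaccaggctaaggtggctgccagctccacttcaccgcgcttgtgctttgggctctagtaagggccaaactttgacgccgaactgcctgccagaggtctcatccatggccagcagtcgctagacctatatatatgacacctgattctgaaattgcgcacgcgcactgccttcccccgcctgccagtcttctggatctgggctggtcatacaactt
ACGTG was present 1 time in the Aldoa window and in none of the other 3. The GC box GGGCGG occurred 3 times in the whole Aldoa window, 1 time in that of Aldoc and in neither Ldha nor Ldhb. TATAAA occurred in none of the 4. The motifs were searched on both strands, and neighbouring matches may share an end letter. Over the 29 of 31 genes with an entry, ACGTG was in 10 windows (34.5%), against 16.6% of all 32851 windows of this length, GGGCGG in 15 (51.7%) against 32.7%, and TATAAA in 2 (6.90%) against 12.4%. The 29 windows are 1 for each gene, while the 32851 hold every listed start. The shares are thus over unlike sets, and nothing is read from their difference. A match is a description of these letters and not a binding site.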

How the data were processed

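The authors deposited 1 table of estimated counts (1.37% of the values are not whole numbers) for 55450 genes, 92 ERCC spike-ins and 472 cells, per the file headers. The submitters' processing notes name STAR 2.7.0 as aligner and mm10 as build. Which tool and gene annotation made the counts is not stated there. Reads were 150 bases long and paired, per the labels' protocols. Ribosomal RNA loci took a median of 17.1% of gene counts. No column belonged to another sample (0 found). Run A held 234 cells; 285 cells had 3 or more rod markers and 187 fewer; 106 cells were positive for Spp1 and Kcng4. Isozymes were compared in 420 cells for glucose transporters, 413 for hexokinase, 469 for phosphofructokinase and lactate dehydrogenase, 312 for the bifunctional enzymes, 285 for monocarboxylate transporters, 451 for Pgk, 466 for Pgam, 471 for pyruvate kinase and all cells for aldolase and enolase.

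Estimated counts were rounded and scaled to 1000000 gene counts per cell (CPM), and a gene was positive at 10 CPM. All 55450 identifiers were found in GENCODE mouse release 21, which gave positions and lengths. Isozymes were compared per kb of exon union. Near copies were found with blastn 2.17.0 (at least 90% identity over 50% of the copy and 200 bases). Ratios are between mean CPM, for genes with a mean of at least 10 CPM. Python 3.11.15, numpy 2.4.6, pandas 2.3.3, scipy 1.17.1 and matplotlib 3.10.9 were used. The ratio and likeness steps were also run on simulated counts without runs or rod RNA, which says nothing of ratios near the 2-fold bound. Intervals of shares are exact Clopper-Pearson (95%), and where no cell was positive 3 counts set the limit. Reads carry no molecular identifiers, so these cover counting error only. No doublet caller was run, since cells were picked singly, and 0 of 472 library names were used again. No cell was left out unless stated.

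The genes, pathway lists, markers and cell sets were chosen with earlier results of these data known. The text may name the 31 genes, the listed pathway genes, the 10 genes most alike, and the marker and class genes; others are marked as chosen after their values were seen. Alternatives were other call levels, totals, depths, lengths and cell sets, and leaving out each run.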

Additional observations from a re-analysis of the deposited data

How the results depend on the processing

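Of the alternatives computed for the main results, 92.9% kept the value within its interval or within 1.5 times its count or ratio. That tolerance is too wide to bear on the 2-fold bound, under which the Aldoc ratio fell in some of them. The leading glucose transporter turned from Slc2a1 to Slc2a3 where Slc2a1 is below 50% in what follows. The count of genes positive in 50% or more of cells ran from 18 at 100 CPM to 21. Ldhb led in 62.7% of cells with counts not divided by length, in 78.7% with either single-transcript length, and in 82.98% without run A. Pfkl led in 42.9% without division by length and 64.6% with the longest annotated transcript, Slc2a1 in 36.2% without division by length and 39.5% with the longest protein-coding transcript, with which mean CPM per kb was 192.1 for Pfkl and 195.2 for Pfkp, and Aldoa in 99.6% with either single-transcript length. In cells with fewer than 3 rod markers the leading shares were 93.05% for Aldoa, 94.1% for Eno1, 100% for Hk1 and 44.9% for Slc2a1. Eno1 led in 98.997% of cells with at least 3000 positive genes and 98.5% without run D. Of the alternatives for the shares of single genes 26.3% left the interval, 45 of them at 1 or 100 CPM. The Hk2 ratio ran from 20.8 in cells with at least 3000 positive genes to 37.6 without run A, that of Ldhb from 1.801 to 2.19, and the rho of Aldoc with Ldhb from 0.670 without run A to 0.775. The ratio, likeness and protein-coding length alternatives were added after the data were seen.

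No animal is named, so differences between animals and those between cells cannot be told apart. With cells thinned to 1000000 gene counts, which left out 7, the share of Hk2-positive cells was 14.6%, that of Slc16a1 40.9% and that of Slc16a7 10.1%. No paired analysis was possible because the cells form 1 group with no numbered replicates shared between groups.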
